A study of Homo sapiens with 8 samples.

Results

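The DNA mismatch repair genes described here are MSH6, MSH3, PMS2, PMS1, MLH3 and EXO1, 6 genes chosen by symbol out of 35113 genes counted, and all 6 passed the filter on low counts. RNA was sequenced from 4 groups of cells with 2 libraries each. HPV− parental cells were the UPCISCC89 line (SCC89) and HPV+ parental cells the UDSCC2 line (SCC2), both established squamous carcinoma lines of the head and neck. HPV− resistant cells (SCC411) and HPV+ resistant cells (SCC35) were each 1 single-cell clone taken from its line after long-term cisplatin at rising doses, with a higher dose in the HPV+ line, and both clones were then grown without the drug. A change in a clone can therefore not be told apart from variation between single cells of the parental line, and HPV status cannot be told apart from any other difference between the lines. Separate cultures behind the 2 libraries of a group are not mentioned in any source, and p-values then cover just the spread between the libraries, part or all of which may be technical.

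Mismatch repair removes wrongly paired bases and small loops left behind by DNA polymerase. Complexes of the MutS type find the mismatch: MSH6 belongs to the one that reads single mispairs and short loops, and MSH3 to the one that reads longer loops. Complexes of the MutL type pass the signal on: PMS2 carries the endonuclease that nicks the new strand, MLH3 has an endonuclease best known from meiotic crossing over, and PMS1 has no established catalytic role. EXO1 is the exonuclease that removes the nicked strand, after which the clamp PCNA, its loader RFC, the single-strand binding protein RPA, DNA polymerase delta and DNA ligase I fill and seal the gap. The pathway is studied in cisplatin resistance because mismatch repair proteins can recognise platinum adducts and signal from them.

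Many genes of DNA replication carry E2F-type sites close to their start, so the promoters of the 6 genes were searched for these letters. Promoters were the RefSeq windows from 250 bases before to 50 bases after each start (assembly GRCh38.p14), and the letters were TTTGGCGC, TTTCCCGC, TTTCGCGC and TTTGCCGC on both strands. MSH6, MSH3, PMS2 and EXO1 had a match in at least 1 of their promoters, and PMS1 and MLH3 had none. Of all genes with a promoter, 1090 of 27305 (3.99%) had a match, and of the 18 S-phase genes used further on, 14 had a promoter in the table and 10 of these a match (71.4%). The 4 matches are shown in lower case with the matching letters in capitals, on the strand of the gene.
MSH6: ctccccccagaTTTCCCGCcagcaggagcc
MSH3: gcggtcaagTTTGGCGCGAAAttgtggccg
PMS2: cgggaagtattTTTGCCGCcccgcccggaa
EXO1: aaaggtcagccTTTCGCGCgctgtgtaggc
The windows lie at chr2:47783137-47783166 on the plus strand (MSH6), chr5:80654536-80654565 on the plus strand (MSH3), chr7:6009131-6009160 on the minus strand (PMS2) and chr1:241848197-241848226 on the plus strand (EXO1). In MSH3 a match on the plus strand (TTTGGCGC) and one on the minus strand (TTTCGCGC) overlap. A match is a description of these letters and was not tested as a binding site.

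PMS2 is the one gene of the 6 whose reads are widely shared with near-identical copies. Of the 31-base words in its main transcript, 47.6% also occur in transcripts of other genes, against 3.83% for MSH3 and 0 for the main transcripts of MSH6, PMS1, MLH3 and EXO1. For PMS2 the shared words were spread over 2172 other genes. The closest copies are the pseudogene PMS2CL and an unnamed long non-coding RNA (ENSG00000290835) that overlaps it, farther along chromosome 7. They held 18.6% and 37.7% of the words of PMS2. In 740 aligned bases, PMS2 and PMS2CL had 727 in common (98.2%). The stretch below shows how little separates them, with the only differing base in capitals.
PMS2: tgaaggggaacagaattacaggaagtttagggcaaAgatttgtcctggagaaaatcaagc
PMS2CL: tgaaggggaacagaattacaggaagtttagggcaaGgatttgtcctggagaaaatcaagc
The PMS2 stretch is in exon 11 of 15 (chr7:5986789-5986848, minus strand, GRCh38) and the PMS2CL stretch in exon 2 of 6 (chr7:6737847-6737906, plus strand). PMS2 itself had 829 to 1391 estimated counts per library, the overlapping long non-coding RNA 150 to 310 and PMS2CL 0 to 83. The 17 genes named after PMS2 together held 27.6 to 33.9% of the counts of the family. PMS2 values are therefore uncertain as far as the authors' counting could split such reads, and each PMS2 change was also computed with the 17 named copies and the overlapping long non-coding RNA added in. A further long non-coding RNA (ENSG00000291178) was not added. It held 3.69% of the words of PMS2 and had 625 to 974 counts per library.

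In GRCh38 with GENCODE release 44, MSH6 spans chr2:47695530-47810063, PMS1 chr2:189784085-189877629, MSH3 chr5:80654652-80876815, PMS2 chr7:5970925-6009130, MLH3 chr14:75013769-75051532 and EXO1 chr1:241847967-241895148. PMS2 and MLH3 are on the minus strand and the other 4 on the plus strand. Totals were 20250246 to 27341284 estimated counts per library. Behind each level stood 2903 to 4773 counts for MSH6, 504 to 879 for MSH3, 262 to 1319 for PMS1, 495 to 1266 for MLH3 and 483 to 1509 for EXO1. The 2 libraries of a group correlated at 0.975 to 0.988 (Pearson, log2 CPM, that is counts scaled to library size, across genes, which are not independent) and differed beyond sampling noise in every group. All 6 squamous markers were present in every library, the lowest being CDH1 at 39.3 CPM, but their levels differed widely between the groups, as given with the comparisons. The leukocyte and endothelial markers PTPRC, CD3E, PECAM1 and VWF stayed under 0.50 CPM.

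Per length, in TPM (the transcript share of each library after division by transcript length), MSH6 had the highest level of the 6 genes in every library, at 30.3 to 54.9 TPM. EXO1 followed with 12.2 to 28.5 TPM and PMS1 with 5.21 to 29.9 TPM, which overlap. MLH3 had 7.11 to 23.1 TPM, PMS2 8.71 to 16.7 TPM and MSH3 6.89 to 12.9 TPM, and these ranges overlap as well. The order below MSH6 differed by line. PMS1 was the lowest of the 6 in HPV− parental cells (5.21 and 6.40 TPM), whereas in HPV+ resistant cells (26.3 and 29.9 TPM) it stood beside EXO1 (28.5 and 25.9 TPM).

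**Figure D1:**
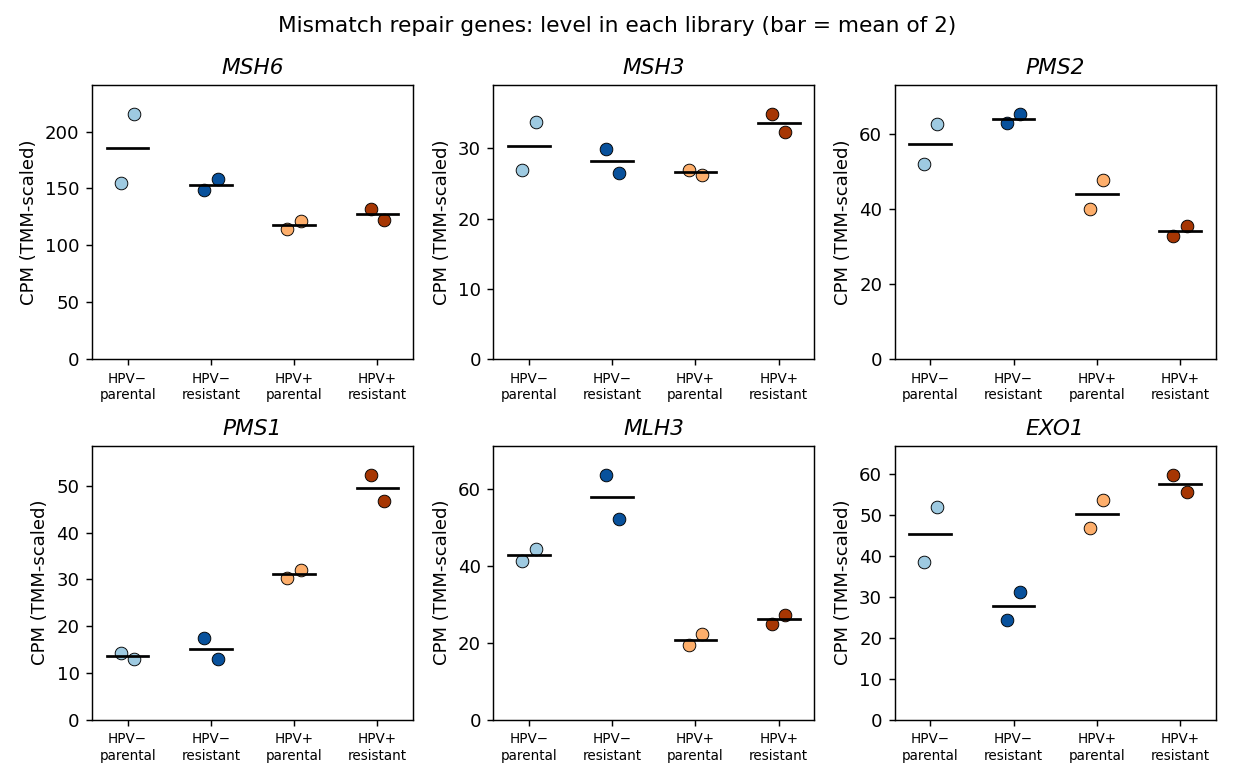
Level of each of the 6 genes in CPM scaled by TMM (y axis, from 0) in the 4 groups (x axis), with 1 point per library and a bar at the mean of 2. PMS1 lies at 13.1 to 17.4 CPM in all HPV− libraries and at 30.4 to 52.3 CPM in all HPV+ libraries, while MLH3 and PMS2 are higher in the HPV− libraries.

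The first comparison asked which of these genes changed in HPV− cells upon development of resistance. EXO1 fell, and none of the other 5 genes passed the test (adjusted p under 0.05, edgeR's quasi-likelihood test with Benjamini-Hochberg adjustment over 15221 genes). The 1 call in 6 genes stands against 26.8% of all genes tested (14.1% lower, 12.8% higher). The median log2 fold change of the 6 genes was 0.026, beside 0.036 over all genes tested, and no gene of the 6 passed the study's threshold of adjusted p under 0.05 with a log2 fold change beyond 1, which 11.3% of genes passed.

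EXO1, the exonuclease, had 38.7 and 52.1 CPM in HPV− parental cells and 24.3 and 31.3 CPM in HPV− resistant cells. Both resistant libraries lay below both parental libraries, which with 2 libraries each is common without any change. The means were 45.4 ± 9.48 and 27.8 ± 4.94 CPM (SD, n = 2), and the log2 fold change was −0.71 (SE 0.18, 95% interval −1.12 to −0.30, edgeR adjusted p = 0.0182), or 0.613 times the parental level. Without HPV− resistant replicate 1 the log2 fold change was −0.54 and did not pass (edgeR adjusted p = 0.136). It passed in the 16 other alternatives.

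Squamous markers moved in the same comparison. The keratins KRT6A (5388 and 4936 CPM in parental against 64.97 and 115.2 CPM in resistant libraries), KRT14 (6547 and 5121 against 221.5 and 281.9 CPM) and KRT5 fell in HPV− resistant cells, as did TP63, the basal cell transcription factor. The log2 fold changes were −5.84, −4.53, −1.27 and −0.68 (edgeR adjusted p = 2.66e-06, 2.66e-06, 0.00292 and 0.00949). CDH1, an adhesion protein of epithelia, rose (1.01, edgeR adjusted p = 0.00203) and EPCAM did not pass (0.14, 0.503 by the same test). Of the markers of other cells, the collagen COL1A1 rose from 4.27 and 3.65 to 8.36 and 7.33 CPM (0.99, edgeR adjusted p = 0.0196). The part of this shift in marker levels in the fall of EXO1 was not tested.

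MLH3 stood at 41.4 and 44.5 CPM in HPV− parental and 63.8 and 52.2 CPM in HPV− resistant cells. Its log2 fold change of 0.43 (SE 0.15, 95% interval 0.089 to 0.77) missed the threshold (edgeR adjusted p = 0.0626) and passed with upper-quartile scaling (0.52, edgeR adjusted p = 0.0353). That scaling raised the log2 fold changes of all genes by a median of 0.081. It called 2420 genes higher, against 1942 in the main fit. MSH6 had 155.2 and 215.2 CPM in HPV− parental and 148.2 and 158.5 CPM in HPV− resistant cells, which overlap (log2 fold change −0.27, SE 0.17, edgeR adjusted p = 0.251). Its parental libraries were far apart, and without HPV− parental replicate 1 the log2 fold change was −0.50 (edgeR adjusted p = 0.0235).

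MSH3, PMS2 and PMS1 had log2 fold changes of −0.10, 0.16 and 0.16 in HPV− cells (edgeR adjusted p = 0.681, 0.464 and 0.557). Their 95% intervals were −0.47 to 0.26, −0.17 to 0.49 and −0.24 to 0.55, so changes of up to 0.724-fold for MSH3 and 1.41-fold and 1.47-fold for PMS2 and PMS1 stay within the error. MSH3 (26.9 and 33.7 against 29.96 and 26.5 CPM) and PMS1 (14.3 and 13.1 against 17.4 and 13.1 CPM) overlapped between the groups. PMS2 had 51.9 and 62.7 CPM in parental and 62.9 and 65.2 CPM in resistant cells, with the nearest libraries almost level.

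The second comparison asked the same of HPV+ cells. PMS1 rose in HPV+ resistant cells and none of the other 5 genes passed the test. The 1 call in 6 genes stands against 18.1% of all genes tested (7.65% higher, 10.5% lower). The median log2 fold change of the 6 genes was 0.26, beside 0 over all genes, and none passed the study's threshold, which 8.0% of genes passed.

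PMS1, a MutL-type protein, had 30.4 and 32.0 CPM in HPV+ parental cells and 52.3 and 46.8 CPM in HPV+ resistant cells. Both resistant libraries lay above both parental ones. The means were 31.2 ± 1.16 and 49.5 ± 3.91 CPM (SD, n = 2), and the log2 fold change was 0.67 (SE 0.17, 95% interval 0.28 to 1.05, edgeR adjusted p = 0.0250), or 1.59 times the parental level. The call was lost when any of the 4 HPV+ libraries was left out, with log2 fold changes of 0.58 to 0.74 and edgeR adjusted p of 0.137 and 0.0727 when resistant replicate 1 or 2 was dropped and of 0.203 and 0.123 when parental replicate 1 or 2 was dropped. It was also lost with an offset for transcript length (0.72, edgeR adjusted p = 0.131).

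Markers moved in this comparison too. KRT6A (2.83, from 67.6 and 65.7 to 501.4 and 446.7 CPM), CDH1 (2.18) and EPCAM (0.81) rose and KRT14 fell (−1.25) in HPV+ resistant cells, with edgeR adjusted p of 0.000131, 7.64e-05, 0.00514 and 0.00311. KRT5 (0.34) and TP63 (0.47) did not pass (edgeR adjusted p = 0.307 and 0.0574). Of the fibroblast-type markers, the matrix proteoglycans DCN (99.4 and 119.5 against 43.6 and 20.03 CPM) and LUM (241.3 and 289.9 against 91.0 and 65.8 CPM) fell, with log2 fold changes of −1.78 and −1.76 (edgeR adjusted p = 0.0339 and 0.00178). The collagens COL3A1 (−0.36) and COL1A1 (−0.06) did not pass (edgeR adjusted p = 0.568 and 0.905). The part of these markers in the rise of PMS1 was not tested.

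PMS2, which carries the nicking endonuclease, had 40.0 and 47.8 CPM in HPV+ parental and 32.9 and 35.4 CPM in HPV+ resistant cells. The log2 fold change of −0.36 (SE 0.15, 95% interval −0.70 to −0.028) missed the threshold (edgeR adjusted p = 0.123). With its copies added in, PMS2 had a log2 fold change of −0.30 in HPV+ cells (edgeR adjusted p = 0.142) and of 0.14 in HPV− cells (edgeR adjusted p = 0.463).

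MSH3 had 26.96 and 26.3 CPM in HPV+ parental and 34.9 and 32.3 CPM in HPV+ resistant cells (log2 fold change 0.34, SE 0.16, edgeR adjusted p = 0.179). MLH3 had 19.5 and 22.3 CPM in parental and 25.1 and 27.2 CPM in resistant cells (log2 fold change 0.33, SE 0.16, edgeR adjusted p = 0.175). Neither gene passed. Their libraries did not overlap between the groups, which with 2 libraries each is common without any change. How many of all genes did so was not counted. In a fit of the 4 HPV+ libraries alone, MSH3 (0.34, edgeR adjusted p = 0.0457) and PMS2 (−0.36, edgeR adjusted p = 0.0354) passed along with PMS1. That fit called more genes of every kind, 5355 of 13971 tested, against 2759 of 15221 in the fit of all 8 libraries.

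MSH6 (114.1 and 121.2 against 132.3 and 122.7 CPM) and EXO1 (46.9 and 53.8 against 59.8 and 55.6 CPM) did not pass in HPV+ resistant cells. Their libraries did not overlap between the groups either, which with 2 libraries each is common without any change. The 95% intervals of both genes held falls as well as rises. The log2 fold changes were 0.12 for MSH6 (95% interval −0.25 to 0.48, edgeR adjusted p = 0.670) and 0.20 for EXO1 (95% interval −0.21 to 0.60, edgeR adjusted p = 0.483).

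Whether the 2 lines differed in their change was tested directly, as the HPV+ change minus the HPV− change. EXO1 passed, with a difference of 0.90 on the log2 scale (SE 0.26, 95% interval 0.33 to 1.48, edgeR adjusted p = 0.0382), from a change of −0.71 in HPV− and 0.20 in HPV+ cells. This was 1 of 6 genes, against 16.7% of all genes tested (8.16% higher, 8.57% lower), and no gene of the 6 had a called difference beyond 1, which 11.7% of genes had. The call was lost without HPV− resistant replicate 1, without any 1 of the 4 HPV+ libraries and with the length offset, at differences of 0.73 to 1.01 and edgeR adjusted p of 0.0797 to 0.128. For PMS1, called in HPV+ cells, the difference between the lines was 0.51 (SE 0.25, 95% interval −0.041 to 1.06) and did not pass (edgeR adjusted p = 0.192). PMS2 had a difference of −0.52 (edgeR adjusted p = 0.124), MSH3 of 0.44 (0.226 by the same test), MSH6 of 0.39 (0.295) and MLH3 of −0.11 (0.807). Without HPV− parental replicate 1 the difference for MSH6 was 0.62 (edgeR adjusted p = 0.0294).

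**Figure D2:**
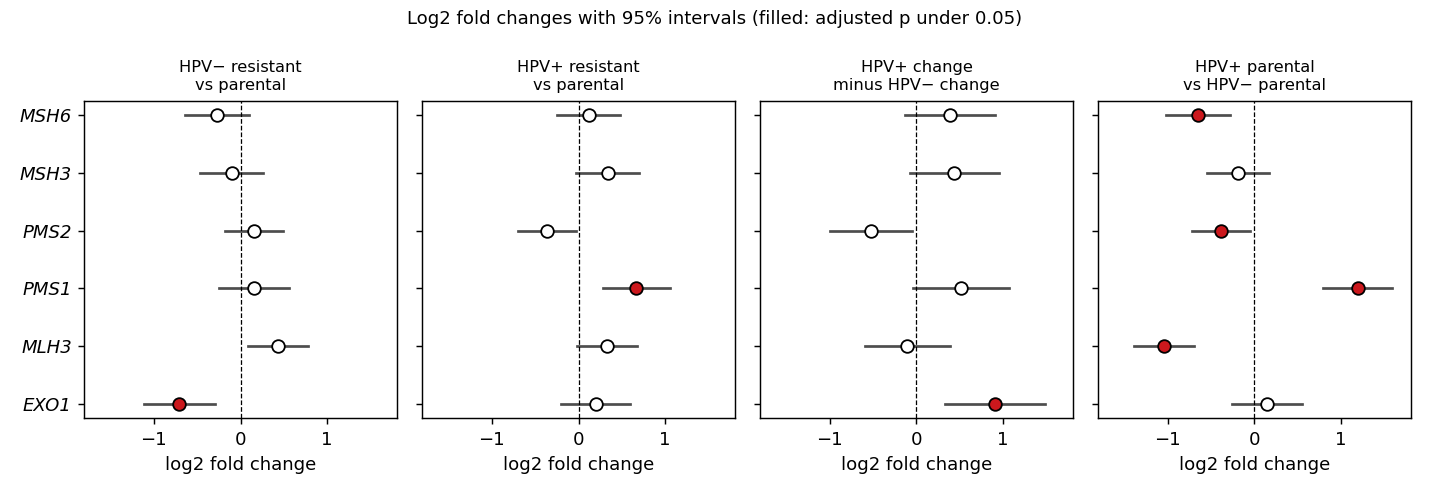
Log2 fold changes (x axis) of the 6 genes with 95% intervals in the 4 comparisons, filled where the adjusted p was under 0.05. EXO1 is filled at −0.71 in HPV− cells and at 0.90 for the difference between the lines, PMS1 at 0.67 in HPV+ cells, and 4 genes are filled between the parental lines.

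Between the parental lines, before any selection, 4 of the 6 genes differed, PMS1 being higher and MSH6, PMS2 and MLH3 lower in HPV+ parental cells. This stands against 58.0% of all genes tested (28% higher, 30% lower), so a share of 4 in 6 is close to the background of these 2 lines. The comparison shares its libraries with the others.

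PMS1 had 14.3 and 13.1 CPM in HPV− parental and 30.4 and 32.0 CPM in HPV+ parental cells, with no overlap. The log2 fold change was 1.19 (SE 0.18, 95% interval 0.80 to 1.59, edgeR adjusted p = 0.000223), or 2.28 times the HPV− level. MLH3 had 41.4 and 44.5 against 19.5 and 22.3 CPM, a log2 fold change of −1.04 (SE 0.16, 95% interval −1.39 to −0.69, edgeR adjusted p = 0.000232), or 0.485 times. PMS1 and MLH3 passed the study's threshold, as did 37.0% of genes.

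MSH6 was lower in HPV+ parental cells by −0.66 (SE 0.17, edgeR adjusted p = 0.00629), with 114.1 and 121.2 CPM there against 155.2 and 215.2 CPM. These 3 calls, of PMS1, MLH3 and MSH6, passed in all 17 alternatives each. PMS2, at 40.0 and 47.8 against 51.9 and 62.7 CPM, passed narrowly (−0.38, SE 0.15, edgeR adjusted p = 0.0499) and in 5 of 18 alternatives. One of those 5 added its copies (−0.34, edgeR adjusted p = 0.0493). MSH3 (−0.19, edgeR adjusted p = 0.345) and EXO1 (0.15, edgeR adjusted p = 0.504) overlapped between the lines.

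Of the 4 fibroblast-type markers, COL3A1, DCN and LUM moved with the same contrast, and COL1A1 did not pass (0.64, edgeR adjusted p = 0.0555). COL1A1 stayed at 3.65 to 8.36 CPM in every library. The other 3 were at 0 in the HPV− libraries, apart from 0.15 CPM of LUM in 1 of them, and COL3A1 was at 1358 to 3079 CPM in the HPV+ libraries. The 8 markers of other cells summed to 4.33 to 8.96 CPM in HPV− libraries and to 1451 to 3389 CPM in HPV+ libraries. The lowest of the latter was HPV+ resistant replicate 2, and the other HPV+ resistant library had 3219 CPM. Of the 6 squamous markers 5 were lower in HPV+ parental cells, by −6.28 (KRT6A) to −1.02 (EPCAM), and TP63 did not pass. Whether cells that express these markers have a part in the differences between the lines was not tested. In bulk RNA, fewer cells of a type and less RNA per cell cannot be told apart.

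Over the 4 groups, PMS1 had the widest range of mean levels (3.62-fold), followed by MLH3 (2.78-fold), EXO1 (2.08-fold), PMS2 (1.88-fold), MSH6 (1.57-fold) and MSH3 (1.26-fold). For PMS1 the order was HPV+ resistant, HPV+ parental, HPV− resistant and HPV− parental, and the last pair overlapped. For MLH3 it was HPV− resistant, HPV− parental, HPV+ resistant and HPV+ parental, with no overlap between neighbours. PMS2 had both HPV− groups above both HPV+ groups. EXO1 was lowest in HPV− resistant cells, and its HPV− and HPV+ parental libraries overlapped. In MSH3 every group overlapped with the next.

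The genes that act after the 6 were 14 genes of the repair synthesis step. PCNA is the clamp, RFC1 to RFC5 its loader, RPA1 to RPA3 the single-strand binding protein, POLD1 to POLD4 the subunits of DNA polymerase delta, and LIG1 the ligase. In HPV− resistant cells 4 of 14 fell and none rose, against 14.1% of all genes lower and 12.8% higher, with a median log2 fold change of −0.35. They were RFC5 (−0.84, edgeR adjusted p = 0.00173), RFC4 (−0.71, 0.0111), POLD2 (−0.66, 0.0123) and RPA3 (−0.74, 0.0286). RFC5 went from 71.4 and 72.3 CPM in parental to 37.5 and 42.9 CPM in resistant cells. Without HPV− resistant replicate 1 the count was lower and without HPV− parental replicate 2 higher, as was the number called over all genes. Each of these fits leaves 1 library in a group.

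In HPV+ resistant cells 3 of the 14 fell and none rose, against 10.5% of all genes lower and 7.65% higher, with a median of −0.14. They were POLD2 (−0.77, edgeR adjusted p = 0.00936), RPA3 (−0.89, 0.0195) and RPA2 (−0.48, 0.0360). RPA3 had 113.2 and 106.8 CPM in HPV+ parental and 66.3 and 52.7 CPM in HPV+ resistant cells. The count was 0 of 14 with the length offset, which called 1726 of 15221 genes, against 2759 without it. The count also fell with any 1 HPV+ library left out, as did the calls over all genes, with 1 library then left in a group. Of the 14, RFC5 alone passed the test of the difference between the lines (0.76, SE 0.19, edgeR adjusted p = 0.0201), a call that was lost without HPV− resistant replicate 1 or with any of the HPV+ libraries left out.

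Between the parental lines, 3 of the 14 genes were higher in HPV+ cells, namely RPA2 (1.64), LIG1 (0.87) and POLD3 (0.55 on the log2 scale). The 9 calls in 14 genes are close to the 58.0% of all genes that differed between these lines. Lower were 6 genes, with RFC2 (−1.11), RFC3 (−0.76) and POLD4 (−2.33) leading by p. POLD4, the smallest subunit of the polymerase, had 83.1 and 51.2 CPM in HPV− parental and 14.5 and 12.1 CPM in HPV+ parental cells (edgeR adjusted p = 0.000950).

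Of 6 accessory genes with a described part in mismatch recognition or repair or in the meiotic branch (HMGB1, MCM9, FAN1, SETD2, MSH4 and MSH5), 5 could be tested. HMGB1, a DNA-bending chromatin protein that also binds platinated DNA, fell in HPV− resistant (−0.71, edgeR adjusted p = 0.00683) and in HPV+ resistant cells (−0.52, edgeR adjusted p = 0.0363). It had 1292 and 1287 CPM in HPV− parental, 813 and 765 CPM in HPV− resistant, 868 and 819 CPM in HPV+ parental and 636 and 540 CPM in HPV+ resistant cells. HMGB1 was also lower in HPV+ than in HPV− parental cells (−0.61, edgeR adjusted p = 0.00492). Its difference between the lines did not pass (0.19, edgeR adjusted p = 0.598). None of the other accessory genes passed in any of the 4 comparisons. The 1 call in 5 genes stands against 26.8% of all genes tested in HPV− cells and 18.1% in HPV+ cells. Between the parental lines it stands against 58.0%.

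**Figure D3:**
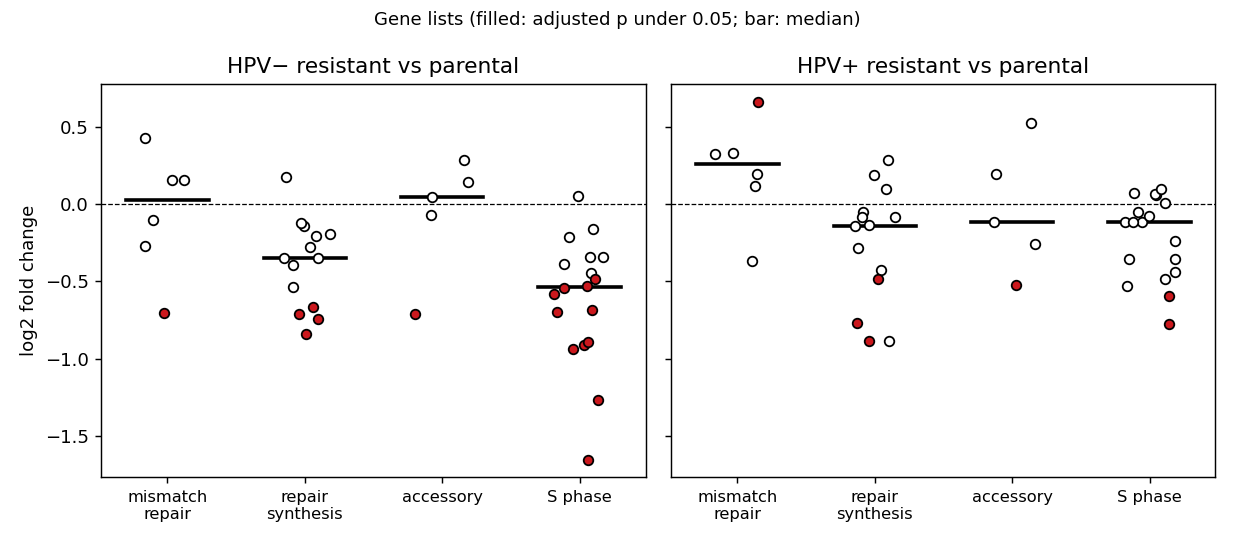
Log2 fold changes (y axis) of the genes of 4 lists (x axis) upon development of resistance in HPV− cells (left) and HPV+ cells (right), filled where the adjusted p was under 0.05, with a bar at the median. In HPV− cells the S-phase genes lie around a median of −0.54 and the 6 mismatch repair genes around 0.026, with EXO1 the lowest of the 6.

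Genes of S phase moved with EXO1 in HPV− cells. Of 18 such genes, which supply the replication machinery and its nucleotides, 11 fell in HPV− resistant cells and none rose, against 14.1% of all genes lower (median −0.54), led by CDC45 (−1.65, edgeR adjusted p = 0.000508), CCNE2 (−1.27, 0.000763) and MCM2 (−0.91, 0.00206). Their summed level was 4847 and 4854 CPM in HPV− parental and 2837 and 3535 CPM in HPV− resistant cells. In HPV+ cells it was 4256 and 4412 CPM in parental and 3844 and 3654 CPM in resistant cells, and 2 of 18 fell, about the 10.5% of all genes that were lower there, CCNE2 (−0.77, edgeR adjusted p = 0.0109) and TYMS (−0.60, 0.0238). The difference between the lines passed for CDC45 alone (1.54, SE 0.28, edgeR adjusted p = 0.00515). HPV− resistant replicate 1, which had the lowest summed level, also had the lowest EXO1. Other libraries differed from this: the HPV− parental libraries had near-equal sums at 38.7 and 52.1 CPM of EXO1. In HPV+ cells the sum was lower in both resistant libraries while EXO1 was higher, at 59.8 and 55.6 against 46.9 and 53.8 CPM. The part of the share of cells in S phase in the level of EXO1 was not tested.

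The 20 tested genes nearest to each of the 6, 10 on each side, gave the setting on the chromosome. Some of these windows were wide, as for EXO1 (chr1:236214681-244709033) and MSH6 (chr2:46541806-54305300). Around MLH3, 16 of 20 neighbours were lower in HPV+ than in HPV− parental cells and none higher, with a median log2 fold change of −1.71, beside −1.04 for MLH3. Around PMS1, 12 were higher and 5 lower, with a median of 0.90, beside 1.19 for PMS1. Around MSH6, 9 were lower and 3 higher (median −0.36, beside −0.66 for MSH6). Around PMS2, 4 were lower and 3 higher (median −0.19, beside −0.38 for PMS2). Over all genes tested, 58.0% differed between the parental lines, and the 12 of 20 called around MSH6 are close to that share.

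For the changes upon resistance, the 20 neighbours of PMS2 had a median of −0.39 in HPV+ cells, beside −0.36 for PMS2, and 4 of them fell while none rose. The neighbours of EXO1 had a median of 0.34 in HPV− cells, with 5 higher and 1 lower, beside −0.71 for EXO1. Those of PMS1 had a median of 0.09 in HPV+ cells, with 4 higher and none lower, beside 0.67 for PMS1. The shares over all genes were 18.1% called in HPV+ and 26.8% called in HPV− cells, and the counts of 4 and of 6 of 20 are near them. Copy number was not measured, and its part in these values was not tested.

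**Figure D4:**
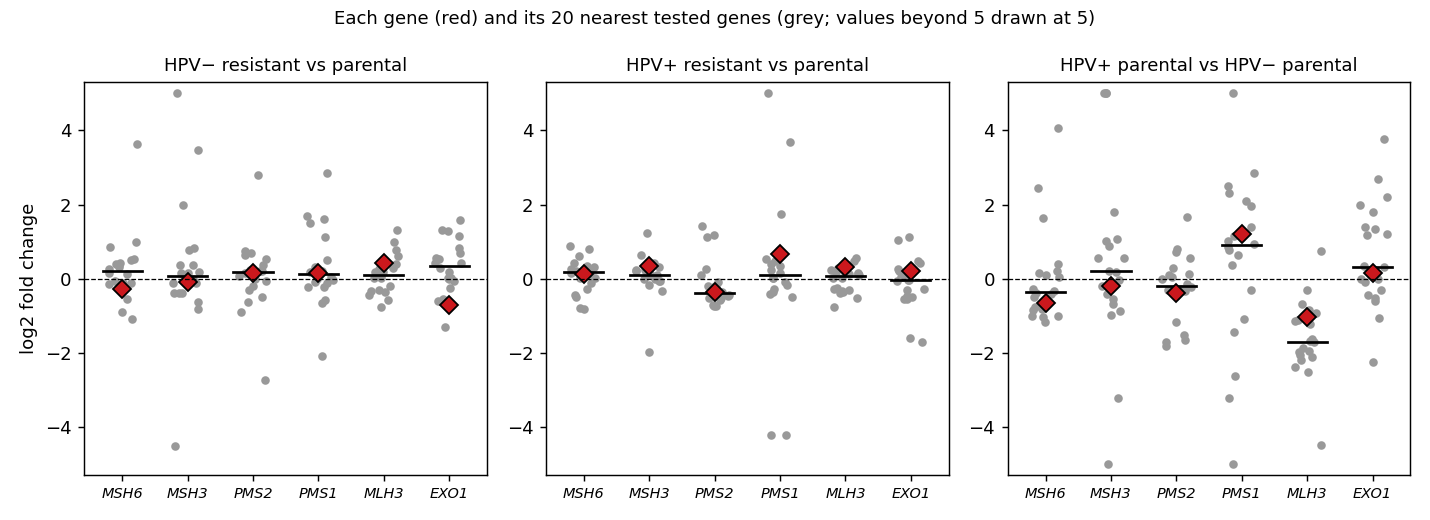
Log2 fold change (y axis) of each of the 6 genes (red diamonds) and of its 20 nearest tested genes (grey points, values beyond 5 drawn at 5, bar at the median) in 3 comparisons. MLH3 lies among neighbours that are mostly lower in HPV+ parental cells, and EXO1 at −0.71 lies below the median of 0.34 of its neighbours in HPV− cells.

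The transcripts behind the gene totals differed between the 6 genes. MSH6-201 gave 93.2% of the TPM of MSH6 over all libraries, PMS2-201 81.7% of PMS2 and MSH3-201 71.8% of MSH3. PMS1-213 gave 48.5% of PMS1 and EXO1-202 46.4% of EXO1. Transcripts annotated as protein coding made up 99.3 to 100% of EXO1 and 94.9 to 100% of MSH6 in each library. In MLH3 they made up only 44.5 to 73.2%, with 20.4 to 44.9% in transcripts annotated for nonsense-mediated decay and 0 to 18.8% in a retained-intron transcript. The decay share of MLH3 was 34.98 and 28.7% for the HPV− parental libraries and 33.4 and 25.2% for the HPV− resistant ones. For the HPV+ line it was 44.9 and 38.6% before and 26.8 and 20.4% after selection. Libraries of the HPV+ groups did not overlap and those of the HPV− groups did. These transcripts rested on few counts, with 35 and 37 for the decay transcript MLH3-205 before and 17 and 21 after selection of the HPV+ line. They are short, and a short transcript weighs more in TPM than in counts. HPV− parental replicate 1 had the lowest coding share, 44.5% of TPM. Of its 776 MLH3 counts, MLH3-205 held 43, the decay transcript MLH3-206 32 and the retained-intron transcript 27.

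EXO1-201, a protein-coding transcript with 14 exons where EXO1-202 has 16, took a larger share of EXO1 in the resistant libraries of both lines. It was singled out after its values were seen and was not tested. Its share was 24.0 and 11.98% for the HPV− parental libraries against 28.1 and 36.9% for the resistant ones, and 19.2 and 18.3% for the HPV+ parental libraries against 37.4 and 33.8% for the resistant ones. Its estimated counts were 208 and 186 for HPV− parental against 196 and 246 for HPV− resistant cells. For the HPV+ line they were 306 and 352 in parental against 670 and 554 in resistant cells. Counts for EXO1-202 were 491 and 896 (HPV− parental), 255 and 374 (HPV− resistant), 810 and 969 (HPV+ parental) and 793 and 845 (HPV+ resistant). Both transcripts share most of their sequence, and how Salmon divided shared reads between them was not tested.

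**Figure D5:**
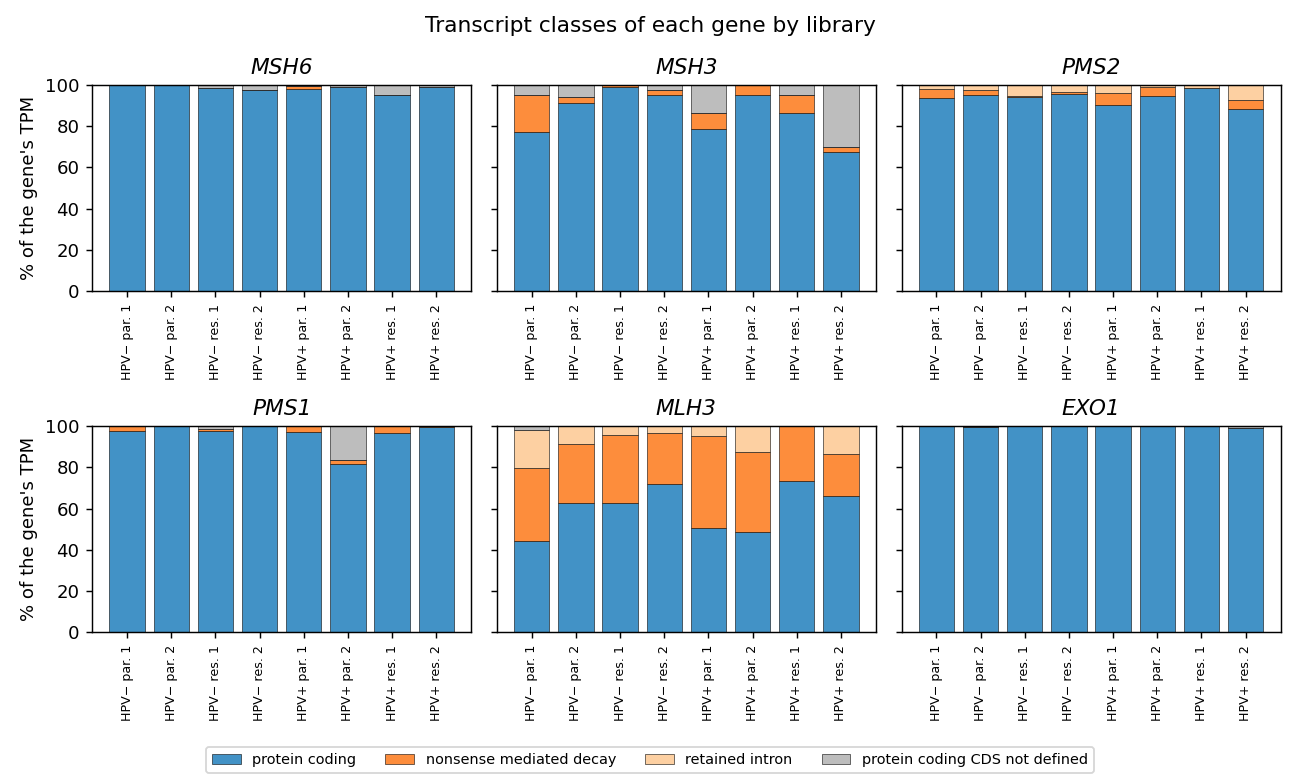
Share of each gene's TPM (y axis, percent) in transcripts of 4 annotated classes, for each of the 8 libraries (x axis; par., parental; res., resistant). EXO1 is protein coding at 99.3% or more in every library, and MLH3 at 44.5 to 73.2%.

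The genes whose level followed each of the 6 most closely were sought among 12656 protein-coding genes by Pearson correlation of log2 CPM over the 8 libraries. These were PARN (0.987) and RNF6 (0.985) for MSH6, NCOR1 (0.958) and RNMT (0.956) for MSH3, MANEAL (0.992) and BAG3 (0.988) for PMS2, MDM1 (0.996) and SPIDR (0.995) for PMS1, FNDC3A (0.993) and GNAI1 (0.992) for MLH3, and METTL6 (0.987) and UTP11 (0.986) for EXO1. Among the 6 genes, PMS2 and PMS1 had the most negative correlation (−0.94) and PMS2 and MLH3 the most positive (0.82). The 8 libraries come from 2 lines and share their groups, so these values are a description of this set of libraries.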

How the data were processed

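RNA of 4 groups of cells, 2 libraries each, was sequenced from polyA libraries. The authors ran Salmon against GRCh38 and deposited estimated counts per transcript, not scaled between libraries, and TPM per transcript. Which version of Salmon and which annotation they used is not given in the sources used here. Estimated counts were summed per gene over the 172550 of 187432 transcripts that matched GENCODE release 44 by ID without version, and rounded. The others, which held 4.33 to 5.13% of counts, were left out. For MSH6, 13 of 26 annotated transcripts and for PMS2 9 of 71 were in the files. Totals were 20250246 to 27341284, which limits the precision of genes with few counts.

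Genes were tested with edgeR 4.0.16 (R 4.3.3, limma 3.58.1), with 1 coefficient per group over all 8 libraries, TMM factors, the default filter and the robust quasi-likelihood test (common dispersion 0.0326, residual degrees of freedom 4, median prior 6.33). Benjamini-Hochberg adjustment ran over 15221 genes. Levels are CPM on TMM-scaled totals, log2 CPM used a prior count of 2, and levels of different genes were compared in the deposited TPM. Alternatives were DESeq2 1.42.0, RLE and upper-quartile factors, a length offset, no filter or 5 CPM in 2 libraries, the 4 libraries of a comparison, protein-coding transcripts, the replicate block and each library left out. Adding the copies of PMS2 was chosen after seeing the data.

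Named were the 6 genes in every comparison, up to 3 genes per direction and comparison with the smallest p of the repair synthesis, accessory and S-phase lists, the 2 genes most correlated with each of the 6, and copies of PMS2. One further gene of the rule is not reported here. The marker genes were named outside this rule, after their values were seen. Where a list had more calls, only its count is given or a gene further down is named with it. S-phase genes were not named between the parental lines. There 6 of 18 were higher and 6 lower in HPV+ parental cells, against 28.0% and 30.0% of all genes tested. The genes and lists were chosen with earlier results of these data known. On simulated counts of 14771 genes for the HPV− comparison, the test found 0% of 50 genes changed 1.5-fold, 34% at 2-fold, 96% at 3-fold and 98% at 4-fold, and made 9 false calls. Python 3.11.15 with matplotlib 3.10.9, pandas 2.3.3 and numpy 2.4.6 handled tables and plots.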

Additional observations from a re-analysis of the deposited data

Results flagged for a closer look

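Among the mismatch repair, repair synthesis, accessory and S-phase genes, 3 changed differently in the 2 lines by the test of the difference itself (edgeR, HPV+ change minus HPV− change on the log2 scale). By list these were 1 of 6, 1 of 14, 0 of 5 and 1 of 18 genes tested, against 16.7% of all genes tested. EXO1 had a difference of 0.90 (SE 0.26, adjusted p = 0.0382), from a change of −0.71 in HPV− and 0.20 in HPV+ cells. RFC5, a subunit of the clamp loader, had a difference of 0.76 (SE 0.19, adjusted p = 0.0201). CDC45, part of the replicative helicase, had a difference of 1.54 (SE 0.28, adjusted p = 0.00515). All 3 fell in HPV− resistant cells and none passed in HPV+ resistant cells. The calls of EXO1 and RFC5 were lost with any HPV+ library left out, as given with the comparisons.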

How the results depend on the processing

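Of 406 recomputed values of the 6 genes, 373 kept their direction and their side of the threshold, 25 no longer passed, 5 newly passed and 3 changed sign. Those 3 were PMS1 in HPV− cells (−0.066) and MLH3 for the difference between the lines (0.044), both without HPV− resistant replicate 1, and EXO1 between the parental lines (−0.060) without HPV− parental replicate 1, and none of them passed in either setting. Over all libraries left out in turn these 3 values ran from −0.066 to 0.34, from −0.24 to 0.044 and from −0.060 to 0.34. The number of the 6 genes called was 2 in HPV− cells with upper-quartile factors, and in HPV+ cells 0 with the length offset and 3 in the fit of 4 libraries. For the difference between the lines it was 0 with the length offset. Of the 14 repair synthesis genes, 0 passed in HPV+ cells with the length offset and 6 in the fit of 4 libraries, and 2 passed for the difference with DESeq2 and with the filter of 5 CPM. When 1 library was left out, the 6 genes gave 0 to 2 calls in HPV− cells, 0 to 1 in HPV+ cells and 0 to 2 for the difference, and the 14 genes gave 1 to 7, 0 to 3 and 0 to 3. The cause was not tested, apart from the smaller number of samples when a library is left out, where the lone library is assumed to vary like the other groups. The deviations of same-numbered libraries correlated at −0.074 to 0.14 between groups, so the samples were taken to share only a number. With the replicate number as a block, EXO1 in HPV− cells had −0.70 (adjusted p = 0.0173) and PMS1 in HPV+ cells 0.66 (adjusted p = 0.0349), and the block changed no call of the 6 genes. With 2 libraries per group, changes of 1.5 times were not recovered on simulated counts. Those counts had 50 changed genes per fold size, against 4081 of 15221 called in HPV− cells. The adjusted threshold is stricter with fewer changed genes, so the simulation cannot set a limit for these data. By 95% interval, MSH3, PMS2 and PMS1 in HPV− cells (0.72 to 1.20, 0.89 to 1.41 and 0.85 to 1.47 times) stayed within 1.5 times. So did MSH6 in HPV+ cells (0.84 to 1.40). The other genes that did not pass upon development of resistance may still differ by that much.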
